A study of Mus musculus with 2 samples.

Results

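Pancreatic polypeptide cells (gamma or PP cells) were taken from 2 single-cell RNA libraries of isolated mouse islets. The members were chosen by measured hormone levels: a barcode counted as a gamma cell when Ppy made up at least 2% of its unique molecular identifiers (UMIs, the tags that count captured transcripts), when Ppy exceeded both Gcg and Sst, and when Ins1 and Ins2 together stayed under 40%. Barcodes needed at least 500 genes and at most 20% mitochondrial UMIs, with no upper limit of UMIs. The rule found 97 gamma cells among 9897 barcodes that met these limits, 35 in the wild-type (WT) library and 62 in the high-fat diet (HFD) library.

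All mice were male C57/B6 animals aged 16 weeks. WT mice ate standard chow, as the study's methods give it, and HFD mice received a lard-based diet with 60% of its calories as fat for 10 weeks, beginning when they were 6 weeks old. Each diet had 1 library, made from the combined islets of 4 mice, and diet, islet preparation and library cannot be told apart. Gamma cells held a median of 14716 UMIs in WT and 5541 in HFD.

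Gamma cells are a rare endocrine cell of the islet, most common in the part of the pancreas that arises from the ventral bud. They release pancreatic polypeptide after meals under vagal control, and the hormone slows pancreatic secretion and gastric emptying and reduces food intake. Pancreatic polypeptide (Ppy), peptide YY (Pyy) and neuropeptide Y (Npy) share a hairpin fold and act on a common family of receptors that inhibit cyclic AMP.

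Ppy and Pyy are neighbouring genes on the minus strand of chromosome 11. In the GRCm38 annotation (the build called mm10) Ppy spans chr11:102099930-102101319 and Pyy spans chr11:102106676-102107832, both protein-coding, with 5356 bases between them. The sequences around their start sites are shown because both messages were abundant in the same cells. Each RefSeq window (GRCm38.p6, minus strand, 5′ to 3′) holds 250 bases before the start and 50 from it, Ppy at chr11:102101270-102101569 and Pyy at chr11:102107783-102108082. Capitals mark the letters TATAA.
Ppy: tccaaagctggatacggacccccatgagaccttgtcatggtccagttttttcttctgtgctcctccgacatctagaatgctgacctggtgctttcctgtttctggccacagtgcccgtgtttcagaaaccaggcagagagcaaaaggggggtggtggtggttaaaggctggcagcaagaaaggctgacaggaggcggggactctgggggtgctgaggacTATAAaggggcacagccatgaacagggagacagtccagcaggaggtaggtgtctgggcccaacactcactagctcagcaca
Pyy: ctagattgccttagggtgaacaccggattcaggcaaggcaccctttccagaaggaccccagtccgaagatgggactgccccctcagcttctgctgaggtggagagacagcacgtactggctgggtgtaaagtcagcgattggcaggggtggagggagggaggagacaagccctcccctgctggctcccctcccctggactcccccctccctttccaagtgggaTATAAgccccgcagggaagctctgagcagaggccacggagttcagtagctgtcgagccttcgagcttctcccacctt

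TATAA began 31 bases before the Ppy start and 27 bases before this Pyy start. RefSeq lists 2 Pyy starts, and the same letters began 83 bases before the other one. On the strand of the gene, 17.5% of 32851 promoter windows held these letters, and on either strand 24.9% did. TAATTA, a core of homeodomain binding sites that reads the same on both strands, was in 5.29% of windows and in neither of these.

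Ppy, which chose the cells, made up between 2.24% and 51.6% of a WT gamma cell's UMIs with a median of 19.3%, and between 2.66% and 54.5% of an HFD gamma cell's with a median of 22.2%. With the other conditions met, the highest Ppy share outside the rule was 1.44% in WT and 1.47% in HFD. Pyy, which did not enter the rule, had at least 1 UMI in all 97 cells and at least 1% of UMIs in 33 of 35 WT cells and 60 of 62 HFD cells. Its share ran from 0.00854% to 25.6% with a median of 7.37% in WT, and from 0.200% to 21.3% with a median of 7.60% in HFD. Pyy UMIs outnumbered Ppy UMIs in 1 WT and 7 HFD cells. Across cells the shares of Ppy and Pyy had a Spearman rho of 0.51 in 35 WT cells and 0.63 in 62 HFD cells. Both shares come from the same total of each cell, and that total also holds the insulin UMIs. The label thus rests on Ppy, by construction. Pyy, outside the rule, does not set these cells apart by itself, since alpha and delta cells held it too, as given below. At least 5% insulin UMIs were found in 31 of the 97 cells, which held 49.4% of all gamma UMIs.

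**Figure D1:**
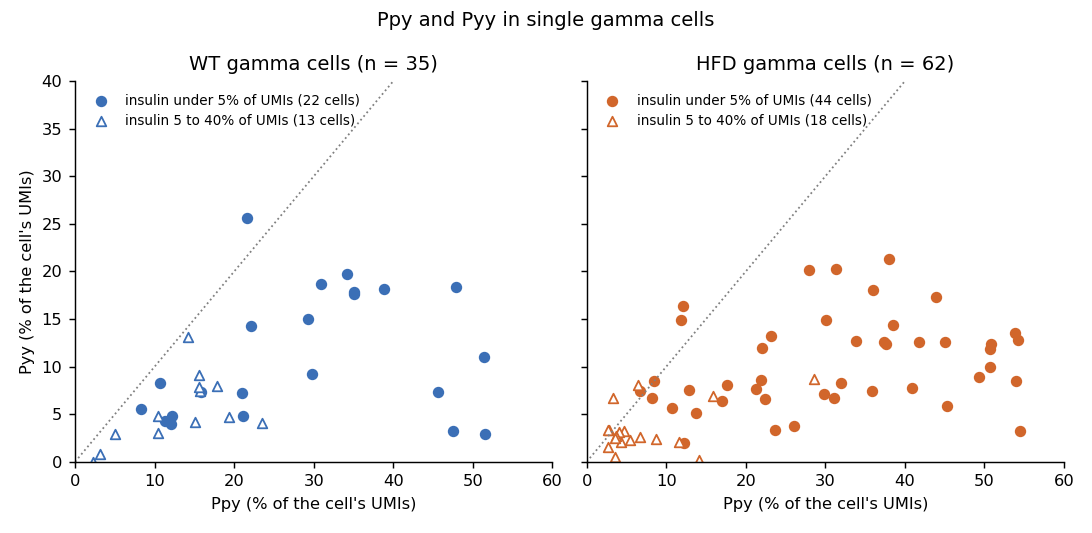
Each point is 1 gamma cell, with the Ppy share of its UMIs on the x axis and the Pyy share on the y axis, in percent, for the WT library (35 cells, left) and the HFD library (62 cells, right). Open triangles are cells with 5 to 40% insulin UMIs, the dotted line marks equal shares, and all but 1 WT and 7 HFD cells lie below it.

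The third peptide of the fold, Npy, had 0 UMIs in gamma cells of both libraries. At the limit set by 3 counts this allows 6.95 CPM in WT and 12.2 CPM in HFD. CPM here and below are UMIs scaled to a fixed total that leaves out the 5 hormone genes of the rule (Ppy, Gcg, Sst, Ins1 and Ins2) and the mitochondrial genes. Among the receptors, 1 WT UMI of Npy1r was found, and Npy2r, Npy4r, Npy5r and Npy6r had 0 UMIs in both libraries.

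Pyy was also common in alpha and delta cells. Those classes were set by the same kind of rule: alpha cells had Gcg of at least 2% and above Ppy and Sst, delta cells had Sst in that place, and both had insulin under 40%. In WT the median Pyy share was 7.37% in gamma, 3.21% in 69 delta, 1.46% in 66 alpha and 0% in 1902 beta cells. In HFD it was 7.60% in gamma, 3.74% in 136 delta, 2.40% in 222 alpha and 0% in 6240 beta cells, so the order of the classes was the same in both libraries. With every cell thinned to 2000 UMIs, all 35 WT and all 61 HFD gamma cells that were deep enough kept a Pyy UMI (unthinned, 35 of 35 and 62 of 62). In endothelial cells, which should lack the gene, 2.45% of 163 WT cells and 5.22% of 115 HFD cells did, with median depths of 6986 and 4428 UMIs before thinning against 14716 and 5700 in gamma cells. The share of Ppy also reached delta cells, whose median was 2.43% in WT and 1.89% in HFD, against 0.165% and 0.361% in alpha cells. Ppy helped to set these classes, and its levels are a description.

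Insulin, whose 40% limit was part of the rule, varied widely among the gamma cells. In WT, 22 cells had at most 0.850% insulin UMIs and 13 cells had between 13.4% and 38.2%, with none between. In HFD, 44 cells had at most 3.27% and 18 had between 7.62% and 39.0%. The limit cut through the insulin-bearing group: a further 23 WT and 15 HFD barcodes met every other condition, with insulin from 40.2% and 41.7% upwards and median Ppy of 3.04% and 3.39%, so the number of insulin-bearing gamma cells depends on it. Those inside the limit held 53.3% and 42.2% of all gamma UMIs. They were deeper, with a median of 20415 against 13507 UMIs in WT and 7873.5 against 5092.5 in HFD. Their Ppy share was lower, with a median of 15.1% against 29.5% in WT and 4.51% against 31.3% in HFD. Islet amyloid polypeptide (Iapp), which beta cells release with insulin, had a median share of 3.31% in the insulin-bearing and 0.107% in the other WT cells, and of 5.22% against 0.199% in HFD.

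Other hormones were seen in some gamma cells as well. Gcg reached at least 2% in 8 WT and 9 HFD cells, and Sst in 5 WT and 17 HFD cells. With Gcg and Sst under 2% and insulin under 5%, 14 WT and 25 HFD gamma cells remained. No doublets were removed. The automatic threshold of Scrublet, a doublet caller, marked 1 WT and 0 HFD barcodes and so had not worked. Among the highest Scrublet scores, 121 WT and 641 HFD barcodes, were 2 gamma cells of each library, both in WT insulin-bearing and neither in HFD. The part of mixed droplets in these shares was not tested. The libraries shared 9 barcodes, and 1 of them belonged to an HFD gamma cell.

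**Figure D2:**
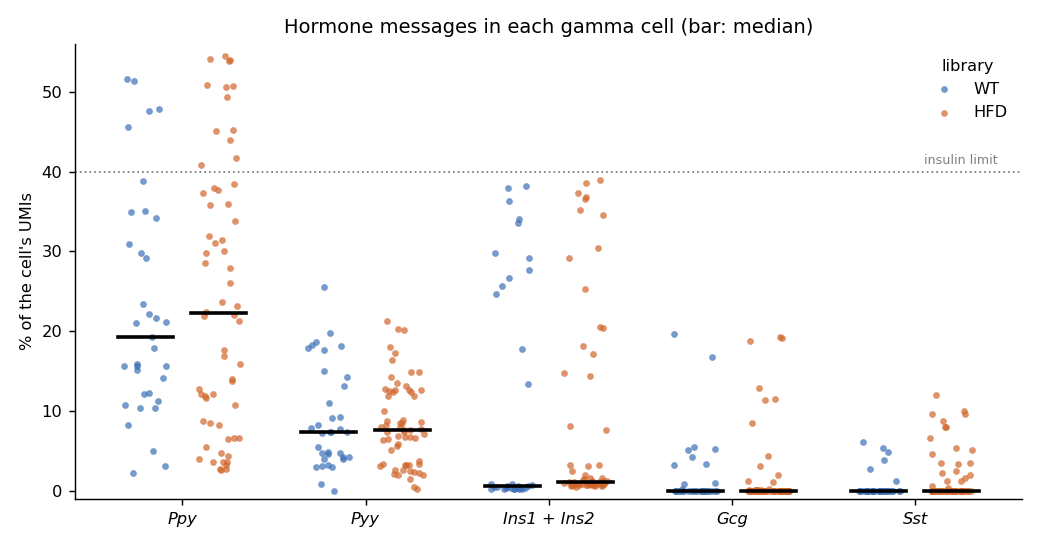
Shares of each gamma cell's UMIs (y axis, percent) for 5 hormone readouts, with 1 point per cell, WT in blue (35 cells) and HFD in orange (62 cells), and a bar at the median. Insulin shares lie either near 0 or between 7.62% and the 40% limit, while Gcg and Sst are near 0 in most cells.

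Ghrelin (Ghrl, chr6:113716119-113719880, minus strand), the peptide of epsilon cells, was carried by 4 WT gamma cells. They held 515, 543, 1474 and 2832 Ghrl UMIs, or 7.35%, 7.43%, 8.21% and 3.77% of their UMIs. No other kept barcode of either library reached 2%, and the highest count elsewhere was 1 UMI. The 4 cells also had 10.4 to 15.6% Ppy, 4.82 to 9.14% Pyy, 3.29 to 5.51% Gcg and 24.7 to 34.1% insulin. In 3 of them the mitochondrial share was 0.307 to 0.438%, below the lowest of the other WT gamma cells (1.59%), and their Ppy shares lay within 15.60 to 15.65%. Values that rest on these 4 cells are given below with and without them.

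The share of gamma cells among kept barcodes was 1.35% in WT (exact 95% interval 0.939 to 1.87) and 0.850% in HFD (0.652 to 1.09). The intervals overlap and cover counting error only, and with 1 library a diet no test was possible. Under a maximum of 15000 UMIs the shares were 2.54% and 1.19%.

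Gamma cells were then set against alpha cells, the glucagon cells of the islet. UMIs were summed by class and library and fitted with edgeR's quasi-likelihood test over 8 sums (gamma, alpha, delta and beta cells of each library) with library as a term. The alpha class here adds an insulin limit and the Sst condition to the plain Gcg rule. Of 8022 genes tested, 80 were higher in gamma cells (0.997%) and 103 lower (1.28%), together 183 (2.28%), at a Benjamini-Hochberg adjusted p under 0.05. With library as a term, the p-values rest on the spread left among the 8 sums, and not on the spread between mice. The 2 libraries differ in diet, so a diet effect that differs by class is part of that spread.

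Pyy was among the genes called. It made up 9.68% of all summed gamma UMIs in WT and 8.12% in HFD, against 2.29% and 3.28% in alpha cells. On the scale of the remaining UMIs it was higher by 1.87 ± 0.20 (log2, SE; adjusted p = 7.74e-06), and by 1.87 ± 0.20 against delta cells (adjusted p = 1.52e-05). Both gamma sums were above both alpha sums and both delta sums. With 2 sums a side this describes the call and is no further support for it.

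The 12 named genes with the largest positive change included Tspan8, Folr1 and Fxyd3. Tspan8, a tetraspanin (chr10:115816832-115849893, plus strand), was at 623 CPM in WT and 737 in HFD gamma cells against 165 and 135 in alpha cells, higher by 2.28 ± 0.17 (log2; adjusted p = 2.92e-08). Folr1, a folate receptor anchored in the membrane (chr7:101858331-101870788, minus strand), was at 512 and 373 CPM against 111 and 115, higher by 2.09 ± 0.19 (adjusted p = 4.88e-07). Fxyd3, a small regulator of the sodium pump, was at 113 and 130 CPM against 46.8 and 24.5, higher by 1.93 ± 0.28 (adjusted p = 0.000324). All 3 had both gamma sums above both alpha sums, but they were chosen for large changes in the same direction in both libraries.

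Spp1, which encodes the secreted phosphoprotein osteopontin, had the largest positive change among the genes at a mean of at least 50 CPM in gamma cells. It was at 734 and 259 CPM in WT and HFD gamma cells and at 81.2 and 132 CPM in alpha cells, higher by 2.47 ± 0.39 (adjusted p = 0.000701). The difference was 3.17 in WT alone and 0.98 in HFD alone, and 1 WT cell held 39.1% of the WT Spp1 UMIs in gamma cells. Spp1 is also a duct marker. The 7 ductal markers summed to 950 and 510 CPM in WT and HFD gamma cells, Spp1 included, with Krt19, Cftr and Muc1 at 0 UMIs in both; the part of duct cells was not tested. The remaining genes of this group were Creb3l1 (an endoplasmic reticulum transcription factor), Nr1d1 (a repressor of the circadian clock), Syne2 (a nuclear envelope protein), Oxr1, Pdyn (the dynorphin precursor) and the less studied 8430408G22Rik and Snhg18, with differences between 1.48 and 2.04. When insulin-bearing cells were left out of all classes but beta, Pdyn turned to -0.40 (adjusted p = 0.936), while the other 11 stayed positive. In that fit 8430408G22Rik and Syne2 among the higher genes, and Nudt11 and Cadm1 among the lower, were no longer called (adjusted p = 0.0677, 0.229, 0.129 and 0.0643), at changes of 2.04, 1.51, -2.47 and -2.46 against 1.80, 1.61, -3.09 and -2.68 with all cells. With alpha cells set by the plain Gcg rule, Pdyn was at 0.11 and 8430408G22Rik at 0.87, neither of them called.

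Of the 12 genes with the largest negative change, several are known alpha cell genes. Ttr, the thyroid hormone carrier transthyretin, was at 3729 and 2625 CPM in WT and HFD gamma cells against 29432 and 47919 CPM in alpha cells, a change of -3.42 ± 0.25 (log2, SE; adjusted p = 2.92e-08). Slc38a5, an amino acid transporter of alpha cells, changed by -3.23 ± 0.41 (adjusted p = 6.51e-05). Irx1, an Iroquois homeodomain factor, had 3 WT and 1 HFD UMIs in gamma cells and 126 and 96.7 CPM in alpha cells, a change of -4.17 ± 0.58 (adjusted p = 0.000227). Others were Agt (angiotensinogen), Pcp4l1, Upk3a, Dpp10, Nudt11, Wnk3, Ptprd and Cadm1, between -3.89 and -2.68, all of them at under 20 CPM in gamma cells. Each of the 24 genes differed the same way in both libraries, which the naming rule required.

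**Figure D3:**
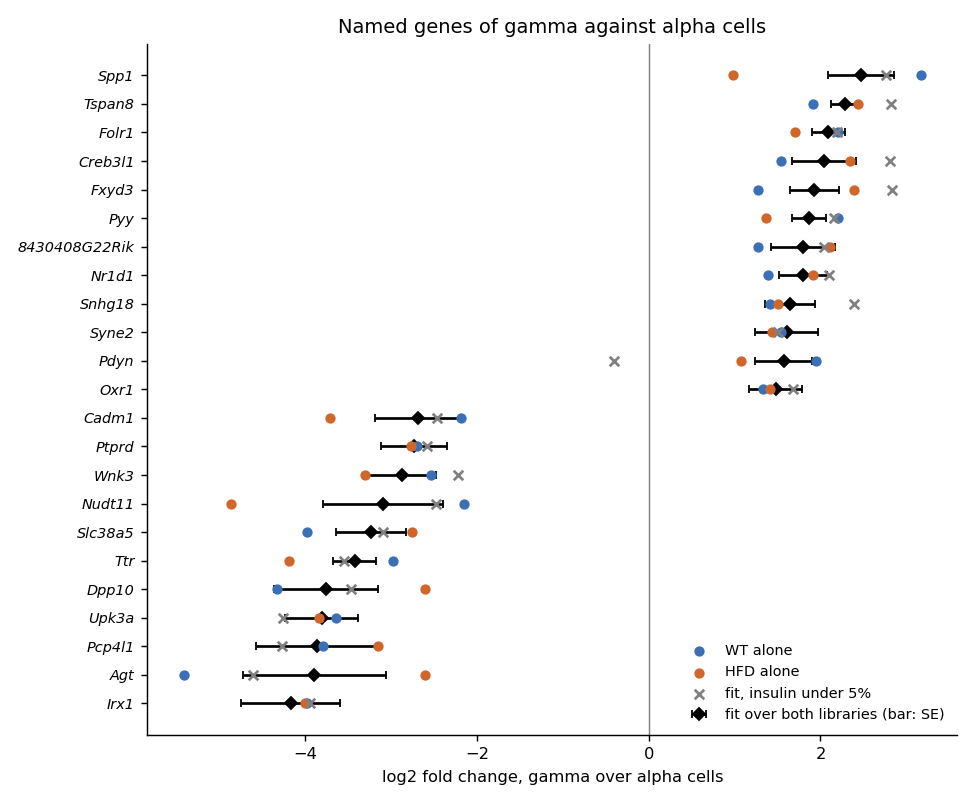
Log2 fold change of gamma over alpha cells (x axis) for the genes named in the text on each side (y axis). Black diamonds are the fit over both libraries with its SE, blue and orange points the ratio in WT and HFD alone, and grey crosses the fit with insulin under 5%; the cross of Pdyn is the only one on the other side of 0.

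Against the alpha marker list (13 genes, 9 tested outside the gate), 6 were lower in gamma cells and 0 higher, with a median of -2.10. Over all genes 1.28% were lower and 0.997% higher. The lower genes included Ttr, Irx1, Irx2, Slc38a5 and the amino acid transporter Slc7a2, which changed by -2.01 ± 0.22 (log2, SE; adjusted p = 7.74e-06). Gc, the vitamin D binding protein, and Tmem27 did not pass, with differences of 0.40 and -0.20.

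Among 26 tested transcription factors of the islet list, 2 were higher in gamma than in alpha cells and 3 lower. Their median was 0.00, and over all genes 0.997% were higher and 1.28% lower. Id2, an inhibitor of basic helix-loop-helix factors, was higher by 1.48 ± 0.27 (adjusted p = 0.00328), at 215 and 142 CPM against 76.5 and 60.6. Nkx6-1, a factor that maintains beta cells, was higher by 0.95 ± 0.21 (adjusted p = 0.0162), and this was not called when gamma and alpha cells with at least 5% insulin were left out (adjusted p = 0.0682). Irx1 was lower as given above, and Irx2 changed by -2.10 ± 0.43 (adjusted p = 0.00851). Pax6, Isl1, Nkx2-2 and Insm1, factors of all islet endocrine cells, did not pass, with differences of 0.44, 0.03, 0.03 and 0.69.

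Against delta cells, 71 genes were higher (0.885%) and 101 lower (1.26%), together 172 (2.14%). Of the same 26 factors 1 was higher and 2 were lower. Hhex, the homeodomain factor of delta cells, was at 11.6 and 44.6 CPM in WT and HFD gamma cells against 276 and 242 in delta cells, a change of -3.25 ± 0.38 (adjusted p = 3.43e-05). Neurog3, the factor that starts endocrine differentiation, had 0 UMIs in gamma cells of both libraries and 55.6 and 26.9 CPM in delta cells, at least 8.01-fold lower in WT and 2.21-fold lower in HFD at a limit of 3 counts for each library (adjusted p = 0.00522). Rbp4, a retinol carrier abundant in delta cells, changed by -1.87 ± 0.23 (adjusted p = 8.02e-05).

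Against beta cells the separation was wider, with 598 genes higher (7.45%) and 511 lower (6.37%), together 1109 (13.8%). Of the 26 factors 9 were higher and 4 lower. All 8 tested beta cell markers outside the rule were lower than in beta cells (median -1.94), while against alpha cells 3 were higher (Iapp, Nkx6-1 and G6pc2) and 1 lower (Slc30a8). Of all genes, 0.997% were higher than in alpha cells and 1.28% lower. The 4 factors lower than in beta cells were Mafa, Pdx1, Nkx6-1 and Neurod1, with changes of -2.54, -1.02, -1.46 and -0.72. Among the higher, Etv1 differed by 2.53 ± 0.30 (adjusted p = 3.75e-06) and Id2 by 2.34 ± 0.23 (adjusted p = 2.79e-07). Etv1 did not separate gamma from alpha cells (-0.59 ± 0.29, adjusted p = 0.38).

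**Figure D4:**
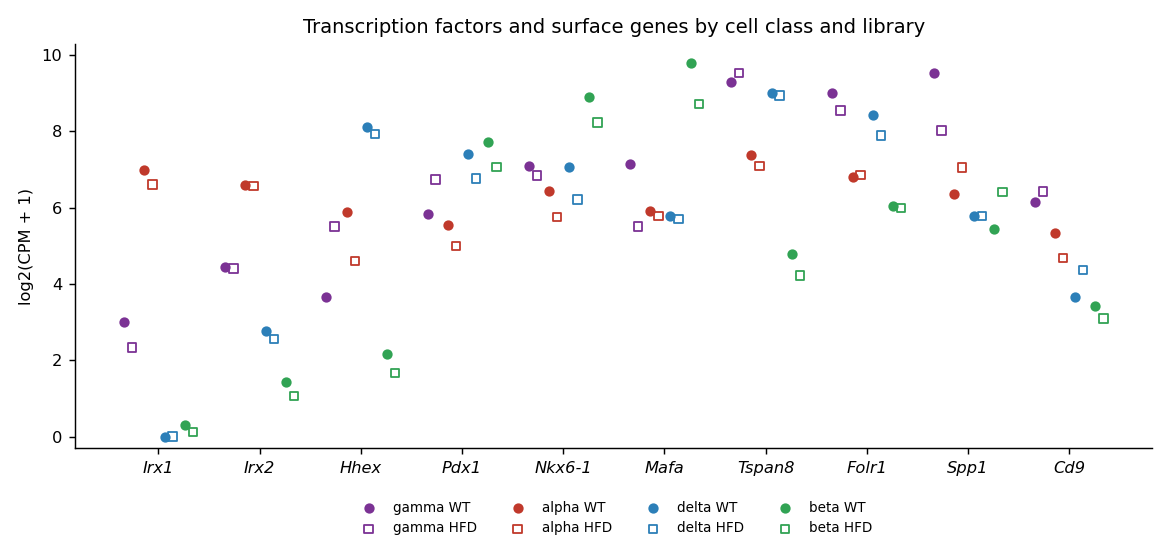
Levels (y axis, log2 of CPM + 1) of 6 transcription factors and 4 surface or secreted proteins in gamma, alpha, delta and beta cells, with filled circles for WT and open squares for HFD. Of these 4 classes the Irx genes are high in alpha cells, Hhex in delta cells and Mafa in beta cells, while Tspan8 and Folr1 are high in both gamma and delta cells.

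Higher than in alpha, delta and beta cells alike were 8 genes: Pyy, Spp1, Tspan8, Folr1, Cd9, Ugt2b34, Maged2 and Serpina1d. Cd9, another tetraspanin, was at 69.5 and 85.1 CPM in WT and HFD gamma cells and at 39.0 and 24.5 in alpha, 11.5 and 19.5 in delta, and 9.73 and 7.52 in beta cells. Maged2, of the melanoma antigen family, was at 213 and 279 CPM in gamma cells and between 99.1 and 152 CPM in the other classes. For Tspan8 and Folr1 delta cells came closest, with differences of 0.65 ± 0.15 (adjusted p = 0.0257) and 0.83 ± 0.17 (adjusted p = 0.0103), the latter not called with insulin under 5% (adjusted p = 0.105). Thinned to 2000 UMIs, 51.4% of WT and 60.7% of HFD gamma cells had a Tspan8 UMI, and 6.75% and 1.74% of endothelial cells did. Delta cells with a Tspan8 UMI made up 65.2% in WT and 46.5% in HFD, and alpha cells 10.6% and 8.72%. Before thinning, 100% and 88.7% of gamma cells had one. Serpina1d, a protease inhibitor of a family with near-identical copies, rested on 22 WT and 6 HFD UMIs, and without the 4 cells with Ghrl its adjusted p was 0.22 against alpha cells. Cd9, higher than in alpha cells by 1.38 (adjusted p = 0.0391), was not called there (1.35, adjusted p = 0.0565), nor with insulin under 5% (1.59, adjusted p = 0.0693) or with Gcg and Sst under 2% (1.24, adjusted p = 0.139). Pde10a, a phosphodiesterase, was the only gene lower than in all 3 classes, at 92.7 and 52.7 CPM against 259 and 161 in alpha, 334 and 225 in delta, and 177 and 94.0 in beta cells.

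Of 19 other genes listed as gamma cell markers, 10 were tested. In gamma cells 2 were higher than in alpha cells, Tspan8 and Id2, 2 higher than in delta cells, Tspan8 and Fgb, and 7 higher than in beta cells. The shares of all genes called higher were 0.997%, 0.885% and 7.45%. Lower were 2 against delta cells (Slitrk6 and Ptprz1) and 1 against beta cells (Slitrk6). With insulin under 5% these were not called (Slitrk6 at -1.67 against delta cells and -1.09 against beta cells, adjusted p = 0.084 and 0.112, and Ptprz1 at -2.37 against delta cells, adjusted p = 0.0516). Fgb, the fibrinogen beta chain, had 12 WT and 5 HFD UMIs in gamma cells and 0 in delta cells. Aqp3, Entpd2, Stmn2 and Abcc9 had 0 UMIs in gamma cells of both libraries.

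Genes of peptide storage and processing differed by smaller steps. Over all genes 0.997% were higher than in alpha cells and 1.28% lower. Of 11 tested peptides and granins, 3 were higher than in alpha cells and 1 lower: Iapp (1.05 ± 0.14, adjusted p = 0.000152), Scg2 (0.81 ± 0.13, adjusted p = 0.00114) and Chgb (0.58 ± 0.13, adjusted p = 0.0166) were higher, and Pcsk1n, which encodes an inhibitor of Pcsk1, changed by -0.65 ± 0.11 (adjusted p = 0.00229). The median Iapp share was 0.526% and 1.31% in all WT and HFD gamma cells, and 0.107% and 0.199% in those with insulin under 5%. In alpha cells the median was 0.0964% and 0.238%. Of 8 processing enzymes, Pcsk1 was higher (1.33 ± 0.20, adjusted p = 0.000365) and Pcsk2, the convertase that makes glucagon, changed by -0.56 ± 0.12 (adjusted p = 0.0118). With insulin under 5%, Pcsk1 kept a difference of 1.18 and was no longer called (adjusted p = 0.45). Pcsk1 had 148 and 158 CPM in WT and HFD gamma cells, 65.6 and 65.8 in alpha cells, and 411 and 390 in beta cells.

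In the exocytosis list 1 of 16 tested genes was higher than in alpha cells (Sytl4, not called with insulin under 5%, adjusted p = 0.956) and 0 lower, and in the ion channel list 0 of 16 passed in either direction. Of all genes, 0.997% were higher than in alpha cells and 1.28% lower. Against beta cells 3 channel genes were higher and 2 lower, beside 7.45% and 6.37% of all genes. The potassium channel Kcnk3 stood out there with 88.0 and 89.1 CPM against 4.71 and 2.58, a difference of 4.84 ± 0.38 (adjusted p = 1.29e-08). It did not set gamma cells apart from alpha or delta cells. Thinned to 2000 UMIs, 8.57% of WT and 9.84% of HFD gamma cells had a Kcnk3 UMI. Alpha cells had one in 22.7% and 18.8%, and delta cells in 13.6% and 11.8%. Among 14 tested receptors Prlr was the only one called against alpha cells (0.98, adjusted p = 0.00955), and with insulin under 5% it was not (0.81, adjusted p = 0.73). Of the 14, 3 were higher and 6 lower than in beta cells, beside 7.45% and 6.37% of all genes. Ffar4, a receptor for long-chain fatty acids, was at 55.6 and 64.8 CPM in gamma cells and 2.58 and 1.35 in beta cells. It was not particular to gamma cells, since alpha and delta cells held it too. After thinning to 2000 UMIs, 2.86% of WT and 13.1% of HFD gamma cells had an Ffar4 UMI. Delta cells had one in 16.7% and 14.96%, and alpha cells in 9.09% and 5.50%. Gpr119, a receptor for lipid amides, was at 44.0 and 20.3 CPM against 9.64 and 7.87 in beta and 5.76 and 4.88 in delta cells (adjusted p = 0.00107 and 0.0157), and with insulin under 5% the difference from delta cells was not called (3.37 against 2.90 with all cells, adjusted p = 0.141). Glycolysis genes passed in 1 of 8 cases against alpha cells (G6pc2, higher, but with an adjusted p of 0.697 once insulin was under 5%). They were lower than in beta cells in 3, beside 6.37% of all genes.

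Of 20 genes of stress and protein folding in the endoplasmic reticulum, 14 were lower than in beta cells and 0 higher, beside 6.37% and 7.45% of all genes. Their median was -0.85 against 0.00 over all genes. Against alpha cells 4 were higher, Fkbp11 (1.24), Dnajb9 (0.82), Dnajc3 (0.58) and Pdia4 (0.95, not called with insulin under 5%, adjusted p = 0.162), and 1 was lower. That gene, Atf3, a stress-induced factor, was at 141 and 122 CPM in WT and HFD gamma cells against 940 and 409 in alpha cells, a change of -2.20 ± 0.20 (adjusted p = 4.88e-07). Immediate early genes did not separate gamma from alpha cells (0 of 15 in either direction, median -0.28). Of the 15, 5 were lower than in delta cells, beside 1.26% of all genes. Hadh was the 1 of 13 tested lipid genes that was higher than in alpha cells, by 1.14 (adjusted p = 0.000324). Over all genes 0.997% were higher than in alpha cells and 1.28% lower.

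Markers of cells outside the endocrine islet were summed in the same way. The 8 endothelial markers summed to 11.6 and 28.4 CPM in WT and HFD gamma cells with 5 and 2 of them at 0, and the 8 macrophage markers to 90.3 and 93.2, with 6 at 0 in each library. T cell markers (5 genes) summed to 0 and 8.10 CPM, B cell markers (4) to 0 and 40.5, fibroblast and stellate markers (7) to 4.63 and 4.05, and Schwann cell markers (5) to 11.6 and 20.3. Higher sums were found for the ductal markers, given above with Spp1, and for the 8 acinar markers, which summed to 517 and 2216 CPM. Of the acinar markers 0 passed the test against alpha cells, 7 were lower than in delta cells and 1 was higher than in beta cells (Cela1). Of all genes, 1.26% were lower than in delta cells and 7.45% higher than in beta cells.

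Gamma cells of HFD were finally set beside those of WT. Ratios were taken for the 4775 genes whose UMIs in both libraries together came to at least 20. Each carries an exact 95% counting interval that leaves out the spread between cells and between mice. At least 2-fold higher in HFD were 146 genes (3.06%) and at least 2-fold lower 228 (4.77%), with a median log2 ratio of 0.02. Pyy had a log2 ratio of -0.32 (-0.34 to -0.30) in the summed UMIs. Its median share of a cell's UMIs was not lower in HFD, at 7.37% in WT and 7.60% in HFD.

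Genes of the exocrine pancreas made up 7 of the 10 named genes higher in HFD, and the other 3 were Cd74, Arg1 and Rbp4. Try5, a trypsin, had 6 WT and 83 HFD UMIs, a log2 ratio of 4.60 (3.41 to 6.08). Prss2, Try4, Ctrb1, Pnlip, Clps and Cpb1, digestive enzymes and a cofactor, had ratios between 1.89 and 2.53, and Try4, Try5 and Prss2 belong to a family whose copies can share reads. All 8 genes of the acinar list were at least 2-fold higher (median 2.11). The list summed to 517 and 2216 CPM in WT and HFD gamma cells, to 704 and 2465 in alpha, 1038 and 12701 in delta, 522 and 1603 in beta and 752 and 2038 in endothelial cells, so it was higher in HFD in every one of these classes. In macrophages it was at 4142 and 3968 CPM. Its part in the gamma cell result was not tested. Cd74, the invariant chain of antigen-presenting cells, had 0 WT and 22 HFD UMIs, a log2 ratio of at least 3.68 at the limit of 3 counts, and 95.5% of them were in 1 cell. The B cell markers Cd79a, Cd79b and Ms4a1 had 0 WT and 7, 1 and 2 HFD UMIs, in 2 cells.

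Rbp4 had 376 WT and 515 HFD UMIs in gamma cells, at 871 and 2086 CPM, a log2 ratio of 1.26 (1.07 to 1.46), with UMIs in 31 WT cells and 48 HFD cells. The ratio was -0.19 in alpha, 0.21 in delta and -0.70 in beta cells. Sst reached at least 2% in 5 WT and 17 HFD gamma cells, and without cells that had at least 2% Gcg or Sst the ratio was 0.58 (0.16 to 0.99). Arg1, an arginine hydrolase, had 7 UMIs in 5 WT cells and 23 UMIs in 14 HFD cells, a log2 ratio of 2.52 (1.26 to 3.99), against -0.49 in alpha, -0.21 in delta and -0.45 in beta cells. Without cells that had at least 2% Gcg or Sst, the interval of Arg1 spanned 0 (1.80, -2.47 to 7.68). These differences between classes were not tested.

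Of the 10 named genes lower in HFD, 3 rested on few WT cells. All 5364 Ghrl UMIs were in the 4 WT cells described above, against 0 in HFD, a log2 ratio of at most -10.00 at the limit of 3 counts. Serpina1a had 46 WT and 0 HFD UMIs (at most -3.13), and Serpina1b 63 and 1 (-5.17, interval -10.50 to -2.64), in each case with WT UMIs in 4 cells. Without the cells with Ghrl, neither had a WT UMI left. These copies of the Serpina1 family can share reads. Mafa and Prss53 had 100% of their WT UMIs in insulin-bearing cells too, with ratios of -1.64 (-2.72 to -0.70) and -1.76 (-2.73 to -0.90). With insulin under 5%, Mafa had 0 WT and 4 HFD UMIs and Prss53 0 and 2.

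Spp1 was lower in HFD gamma cells, with 317 WT and 64 HFD UMIs and a log2 ratio of -1.50 (-1.91 to -1.11), and was higher in HFD alpha (0.70) and beta cells (0.97). It was found in 20 WT and 26 HFD cells. With a maximum of 15000 UMIs a cell, the gamma ratio was 0.28. Fos, an immediate early factor, had 868.6 and 308 CPM, a ratio of -1.50 (-1.87 to -1.14) against -2.77 in alpha, -1.97 in delta and -2.50 in beta cells, so it was lower in HFD in every class. With insulin under 5% the gamma ratio of Fos was -0.66 (-1.12 to -0.22). Cebpd had a ratio of -1.80 in gamma and alpha cells alike, against -0.29 in delta (-1.23 to 0.62) and -1.07 in beta cells. Urod and Chd7 had ratios of -2.42 (-4.78 to -0.72) and -2.19 (-4.15 to -0.70) on 3 and 4 HFD UMIs. Insulin-bearing cells held 75% and 81.25% of their WT UMIs. With insulin under 5% both intervals spanned 0, for Urod at -2.18 (-7.67 to 0.78) and for Chd7 at -0.96 (-4.30 to 1.53).

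**Figure D5:**
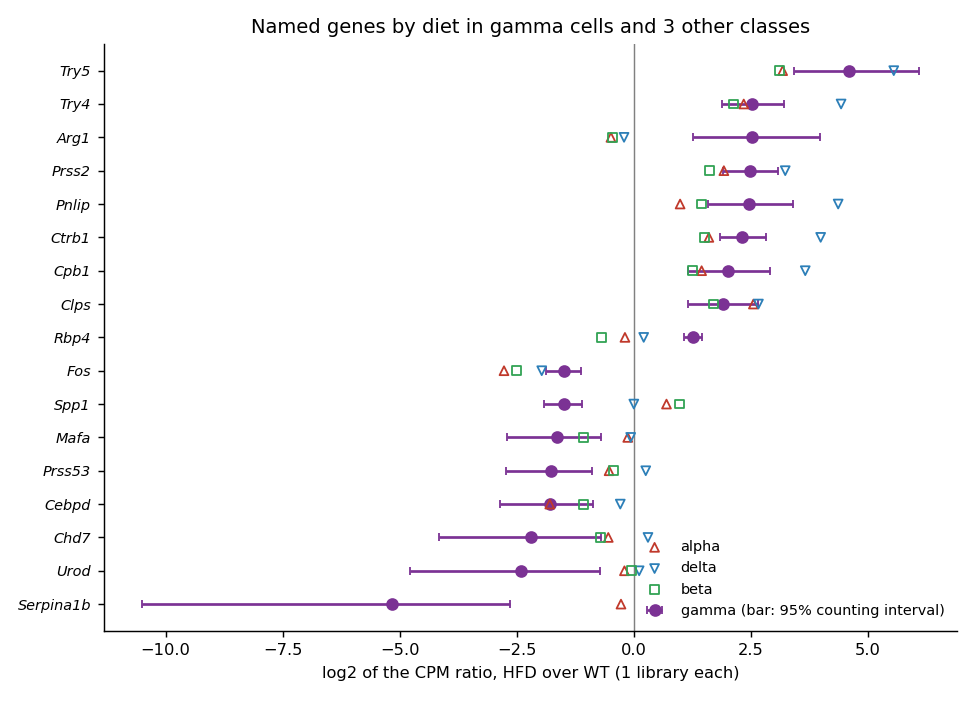
Log2 ratio of CPM in HFD over WT (x axis, 1 library each) for named genes with UMIs in both libraries (y axis). Filled circles are gamma cells with 95% counting intervals, and open triangles and squares are alpha, delta and beta cells; Rbp4, Arg1 and Spp1 lie apart from alpha and beta cells, while acinar genes lie on the same side in all 4 classes.

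Beside the 3.06% of all genes that were at least 2-fold higher in HFD and the 4.77% that were lower, of 20 measured islet transcription factors 0 were higher and 5 lower (median -0.35, and -0.31 with insulin under 5%), and of 8 beta markers 3 were lower (median -0.60, and 0.66 with insulin under 5%). Of 18 genes of the endoplasmic reticulum stress and folding list 1 was at least 2-fold higher, Ddit3, a factor induced by stress of the endoplasmic reticulum, with 41 WT and 56 HFD UMIs and a log2 ratio of 1.26 (0.65 to 1.87), and 0 were lower. The 8 processing enzymes and 8 lipid genes held none that passed 2-fold either way, with medians of -0.01 and 0.47.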

How the data were processed

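Per the labels and the study's methods, islet cells were freed of dead cells with a kit and sequenced with the 10x Genomics 3′ v3 chemistry. What was deposited are untransformed UMI counts, a gene by barcode matrix for each library that the authors made with Cell Ranger (v3.0.2, mm10). The study's later limit of 15000 UMIs is not applied in these counts. The members and gene lists were chosen with earlier results of these data known, and the alternatives on insulin under 5%, Gcg and Sst under 2%, cells with Ghrl, the mean of cells and the denominator were chosen after seeing the data.

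The WT library held 73843674 UMIs over 3895 barcodes and the HFD library 94375138 over 8951. Classes were set by hormone shares as the report gives, beta cells being those with at least 40% insulin UMIs and under 2% Ppy, Gcg and Sst. Counts were summed by class and library, without the 5 gate hormones and mitochondrial genes, and tested with edgeR (v4.0.16; TMM, filterByExpr, glmQLFTest; DESeq2 v1.42.0 as alternative), Benjamini-Hochberg over all genes. The SE is the log2 change divided by the square root of F. On simulated counts for gamma against alpha cells (7446 genes), 96% of 4-fold higher, 58% of 4-fold lower, 16% of 2-fold higher and 10% of 2-fold lower genes were recovered. The simulated spread was set wider than the common spread of the real fit, and the changed genes were drawn from those with more counts. These rates are therefore not those of the real fit. Diet ratios used CPM with exact conditional intervals; with 1 library a diet no p-value is given. Intervals and limits of 3 counts cover counting error only. For shares of cells with a UMI, cells were thinned to 2000 UMIs. Endothelial and macrophage cells had at least 4 of 8 markers. The genes named are the 12 with the largest change each way against alpha cells (adjusted p under 0.05, a mean of at least 50 CPM in the higher class, same direction in both libraries, no ribosomal proteins), those higher than all 3 classes, and the 10 each way by diet with at least 50 CPM in 1 library whose nearer interval bound lay farthest from 0, beside list members. Pde10a was named after its values were seen. Python (v3.11.15), scanpy (v1.11.5) and R (v4.3.3) were used. Some genes that the rule chose are not reported here.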

Additional observations from a re-analysis of the deposited data

Results flagged for a closer look

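For 3 genes the log2 ratio of HFD to WT had opposite directions in gamma cells and in alpha and beta cells, with counting intervals on opposite sides of 0. Arg1 was 2.52 in gamma, -0.49 in alpha and -0.45 in beta cells, and without gamma cells that had at least 2% Gcg or Sst its interval spanned 0 (-2.47 to 7.68). Rbp4 was 1.26 in gamma, -0.19 in alpha and -0.70 in beta cells, while delta cells lay on the side of gamma cells (0.21, 0.13 to 0.29). Spp1 was -1.50 in gamma, 0.70 in alpha and 0.97 in beta cells, and its gamma ratio turned to 0.28 with a maximum of 15000 UMIs a cell. Each class has 1 library a diet, so these differences between classes were not tested.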

How the results depend on the processing

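For diet, no paired analysis was possible because each diet has 1 library. Between classes the library term pairs the sums of a library, and without it the calls against alpha cells were 10 higher and 27 lower, against delta cells 19 and 22, and against beta cells 351 and 283, and 11 of the 24 genes named against alpha cells were no longer called. A maximum of 15000 UMIs gave gamma shares of 2.54% in WT and 1.19% in HFD, 49 higher than alpha, 29 higher and 35 lower than delta, 274 higher and 237 lower than beta, and 83 lower in HFD. Insulin under 20% gave a WT share of 0.923%, 53 higher than alpha and 99 lower in HFD. Insulin under 5% gave shares of 0.846% and 0.603%, median Ppy of 29.5% and 31.3%, median HFD Pyy of 8.77%, 46 higher than alpha and 104 lower in HFD. Ppy of at least 5% gave 53 higher than alpha. The plain alpha rule gave 32 higher and 57 lower. No filter on low counts gave 171 lower than alpha. DESeq2 gave 63 lower than delta and 291 lower than beta, and did not call Spp1 against alpha cells (2.38). Gcg and Sst under 2% gave 159 lower than alpha, 316 higher and 298 lower than beta, and 76 higher in HFD. At least 10 UMIs gave 405 higher and 642 lower in HFD, at least 50 UMIs 29 and 28, and the mean of cells 224 and 350. Thinned to 1000 UMIs, 37.1% of HFD gamma cells had a Tspan8 UMI; unthinned, 100% of WT and 88.7% of HFD cells had Tspan8. Pdyn turned to -0.46 with Ppy of at least 5% and -0.40 with insulin under 5%, and Spp1 by diet to 0.28 under 15000 UMIs. The causes were not tested. The other 131 alternative values of these counts, medians and shares moved less: counts by under 1.5 times, shares and medians within their counting intervals. With either library alone, the 24 genes named against alpha cells kept their direction, as their choice required.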
